A study of Drosophila melanogaster with 3 samples.

Results

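The odorant receptor (Or), gustatory receptor (Gr) and ionotropic receptor (Ir) genes of Drosophila melanogaster encode the membrane proteins with which sensory neurons detect smells, tastes, temperature and humidity. The genes were taken by symbol, as protein-coding genes named Or, Gr or Ir followed by a number and a lower-case letter in the Ensembl annotation of the main chromosome arms. This gave 179 of 13945 protein-coding genes, made up of 59 Or, 60 Gr and 60 Ir genes. Of these, 31 lay on 2L, 46 on 2R, 35 on 3L, 42 on 3R, 25 on X and 0 on 4. Hr4, a nuclear receptor of the ecdysone response, was located on the genome by chromatin immunoprecipitation followed by sequencing (ChIP-seq) in 3 biological replicates that form 1 group. The animals were whole white prepupae of both sexes from 1 transgenic line, strain Hr4-GFP, stably carrying a C-terminal GFP fusion to Hr4, and an antibody against GFP was used. The age label reads 48 day, although the stage is the start of metamorphosis. No condition and no control library were compared, so the receptor genes are set beside all protein-coding genes.

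Odorant receptors work as pairs of a tuned subunit and the common subunit Orco, and each olfactory neuron usually expresses a single tuned Or gene. Gustatory receptors serve neurons for sugars, bitter compounds and carbon dioxide, while ionotropic receptors are relatives of glutamate-gated channels that combine a tuned subunit with co-receptors such as Ir25a and Ir8a. Chromatin of whole animals was used, so each peak is an average over all tissues.

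Peaks are given by their summit, the position of highest signal, in build dm6. The reproducible list holds 8693 peaks, the highest entries of a pooled relaxed list of 30000 peaks and background regions that was called on the reads of all replicates together. Each replicate has a relaxed list of 30000 entries of its own. Rank 1 is the strongest entry of a list, and the signal value is the authors', with no unit, used here only within 1 list. Read depth is unknown, so no value carries a counting interval. Replicate 1 stood apart from the other 2 near receptor genes, as given below.

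The sequences on which the results turn are shown here, in lower case and 5′ to 3′, from the Release 6 reference genome of RefSeq, build dm6. Capitals mark the summit or the annotated start base, and any AGGTCA (the core hexamer bound by many nuclear receptors) or TATAAA (the core of the TATA box) on either strand. Summit windows run 50 bases to each side on the + strand, and promoters run from 250 bases before the start to 50 bases from it on the strand of the gene. The first pair belongs to Or88a, the only receptor gene with a reproducible summit within 1 kb. The next 4 show the summit of Orco and the receptor-associated summits nearest to or strongest at Ir25a and Gr93d. The last 3 carry AGGTCA.
Or88a promoter, chr3R:14109195-14109494, + strand: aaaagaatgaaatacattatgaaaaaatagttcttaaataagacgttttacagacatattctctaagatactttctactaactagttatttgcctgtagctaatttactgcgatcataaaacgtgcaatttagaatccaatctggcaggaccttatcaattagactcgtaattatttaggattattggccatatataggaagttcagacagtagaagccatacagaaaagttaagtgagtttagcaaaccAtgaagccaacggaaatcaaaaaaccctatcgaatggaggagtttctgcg
Or88a summit, chr3R:14108631-14108731: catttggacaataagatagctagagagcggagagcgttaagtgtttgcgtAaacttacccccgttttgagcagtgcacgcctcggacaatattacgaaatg
Orco summit, chr3R:5413173-5413273: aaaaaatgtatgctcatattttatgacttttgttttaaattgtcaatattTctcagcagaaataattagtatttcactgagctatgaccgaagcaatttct
Ir25a nearest summit, chr2L:4836299-4836399: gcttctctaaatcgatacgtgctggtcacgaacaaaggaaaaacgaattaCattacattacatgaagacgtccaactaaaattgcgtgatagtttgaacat
Ir25a strongest summit within 5 kb, chr2L:4837814-4837914: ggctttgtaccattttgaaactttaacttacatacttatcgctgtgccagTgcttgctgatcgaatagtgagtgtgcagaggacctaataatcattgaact
Gr93d strongest summit within 5 kb, chr3R:21849137-21849237: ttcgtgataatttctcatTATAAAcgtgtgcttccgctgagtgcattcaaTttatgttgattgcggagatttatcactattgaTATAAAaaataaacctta
Ir67b summit, chr3L:10428864-10428964: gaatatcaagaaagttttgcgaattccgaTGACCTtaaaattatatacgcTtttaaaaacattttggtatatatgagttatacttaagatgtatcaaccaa
Gr28a promoter, chr2L:7454163-7454462, - strand: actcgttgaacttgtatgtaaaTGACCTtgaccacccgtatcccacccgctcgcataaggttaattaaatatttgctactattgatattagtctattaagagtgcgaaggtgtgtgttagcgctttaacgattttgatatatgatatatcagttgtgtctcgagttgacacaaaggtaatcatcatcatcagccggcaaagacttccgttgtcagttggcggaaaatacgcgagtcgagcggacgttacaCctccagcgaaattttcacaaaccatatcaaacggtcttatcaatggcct
Or65a promoter, chr3L:6320361-6320660, + strand: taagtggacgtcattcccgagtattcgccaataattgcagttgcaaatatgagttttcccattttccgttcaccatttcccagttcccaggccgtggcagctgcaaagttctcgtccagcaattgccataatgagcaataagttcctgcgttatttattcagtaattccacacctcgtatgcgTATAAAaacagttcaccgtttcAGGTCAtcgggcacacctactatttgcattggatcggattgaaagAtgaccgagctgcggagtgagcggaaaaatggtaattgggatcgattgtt

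Hr4 summits were scarce at the starts of receptor genes, and the gap to all genes narrowed with distance. Within 1 kb of a start, 1 of 179 receptor genes (0.559%) had a reproducible summit, against 22.7% of all protein-coding genes. Within 5 kb the count was 48 receptor genes (26.8%), against 44.9% of all genes, and within 20 kb it was 127 (70.9%), against 81.8%. The median distance from a start to the nearest reproducible summit was 11572 bp for receptor genes and 6176 bp for all genes. No test was made of these shares, since the receptor genes were chosen with earlier results of these data known.

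In the first kilobase upstream of the start, receptor genes carried 0.559 reproducible summits per kb per 100 genes, against 17.6 for all genes. In the first kilobase downstream they carried 0, against 6.34. From 1 to 2 kb upstream the density was 4.47 at receptor genes and 7.16 at all genes. From 2 to 5 kb upstream it was 7.82 at receptor genes and 6.91 at all genes, so receptor genes were the higher group in this upstream bin. These values count a summit once for each gene near it, and the 42 summits counted here were 38 distinct ones. The 4 Gr93 genes, a cluster on 3R described below, contributed 9 of the 42. Without these 4, a choice made after the data had been seen, the density was 6.29 summits per kb per 100 genes for the other 175 receptor genes, below the 6.91 of all genes. From 5 to 10 kb upstream it was 6.59 at receptor genes and 7.47 at all genes. From 10 to 20 kb upstream the receptor genes had 6.59 summits per kb per 100 genes and all genes had 7.74. Downstream, the receptor genes stayed lower in the 2 to 5 kb bin, with 4.66 summits per kb per 100 genes against 6.91. The pooled relaxed list gave 13.4 entries per kb per 100 receptor genes in the first upstream kilobase, against 38.9 for all genes. From 2 to 5 kb upstream it gave 25.7 for receptor genes and 20.6 for all genes, and 24.0 without the Gr93 genes. From 5 to 10 kb upstream it gave 23.4 for receptor genes and 22.2 for all genes, the opposite order to the reproducible list, and 21.7 without the Gr93 genes. The plot of summit density by distance shows these bins for both lists.

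**Figure D1:**
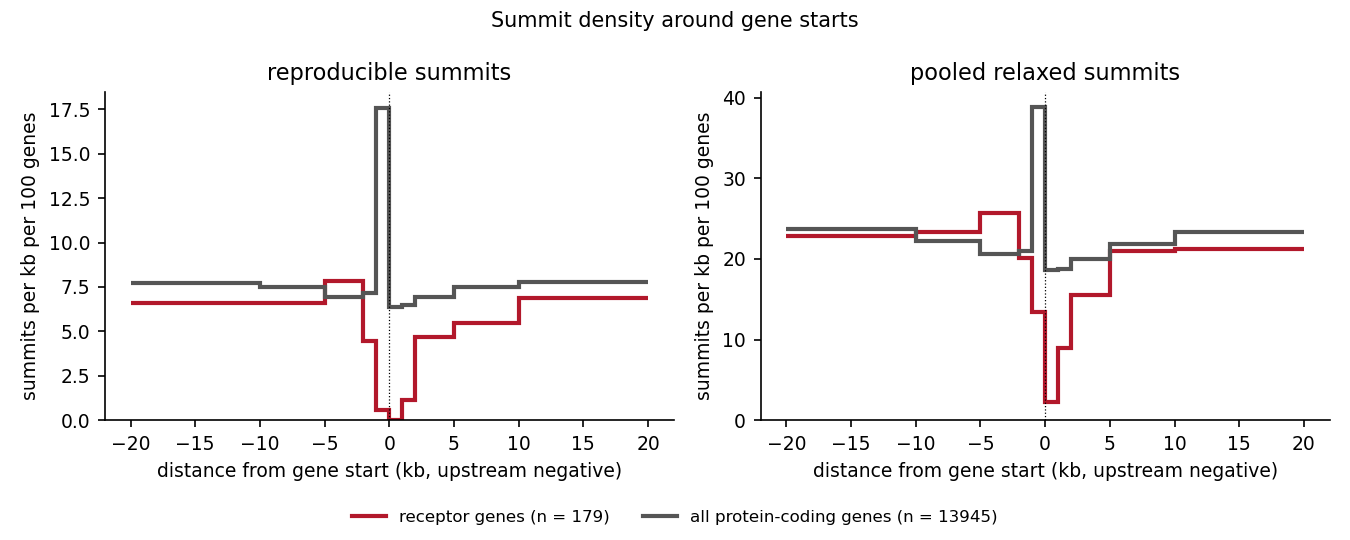
Summits per kb per 100 genes (y axis) by distance from the gene's 5′ end in kb (x axis, upstream negative), for the 179 receptor genes (red) and all 13945 protein-coding genes (grey), in the reproducible list on the left and the pooled relaxed list on the right. Bins end at 1, 2, 5, 10 and 20 kb. In the first upstream kilobase the receptor genes have 0.559 reproducible summits per kb per 100 genes and all genes have 17.6.

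The annotated starts of receptor genes differ from those of other genes, which bears on every distance given here. For 132 of 179 receptor genes (73.7%) the annotated 5′ end was the first coding base, against 3.69% of all protein-coding genes. The median distance from the 5′ end to the first coding base was 0 bp for receptor genes and 135 bp for all genes. For most receptor genes, then, the annotation gives no untranslated leader. Among genes annotated in this way, 1 of 132 receptor genes (0.758%) and 13 of 515 of all genes (2.52%) had a reproducible summit within 1 kb. Among genes whose start lies upstream of the first coding base, the counts were 0 of 47 receptor genes and 3151 of 13430 of all genes (23.5%). Measured from the first coding base of every gene, a choice made after the data had been seen, the count was again 1 of 179 receptor genes, against 16.5% of all genes. The part that undetected upstream starts have in the result was not tested.

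The 3 families overlapped in their distances. Within 1 kb the counts were 1 of 59 Or, 0 of 60 Gr and 0 of 60 Ir genes. Within 5 kb they were 16 Or (27.1%), 15 Gr (25%) and 17 Ir genes (28.3%). Within 20 kb they were 42 Or, 41 Gr and 44 Ir genes. The median distance to the nearest reproducible summit was 12559 bp for Or, 11682.5 bp for Gr and 9918.5 bp for Ir genes. Each family held genes more than 80 kb away from a summit. By chromosome arm, the receptor genes with a summit within 5 kb were 5 of 31 on 2L (16.1%), against 44.4% of all genes there, and 7 of 46 on 2R (15.2%), against 40.4%. On the other arms they were 13 of 35 on 3L (37.1%), against 48.7%, 16 of 42 on 3R (38.1%), against 45.1%, and 7 of 25 on X (28%), against 46.5%. The gap to all genes was thus wider on both arms of chromosome 2. The distant Gr22, Gr36, Gr58 and Ir56 arrays lie on these arms, and their part in the gap was not tested.

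**Figure D2:**
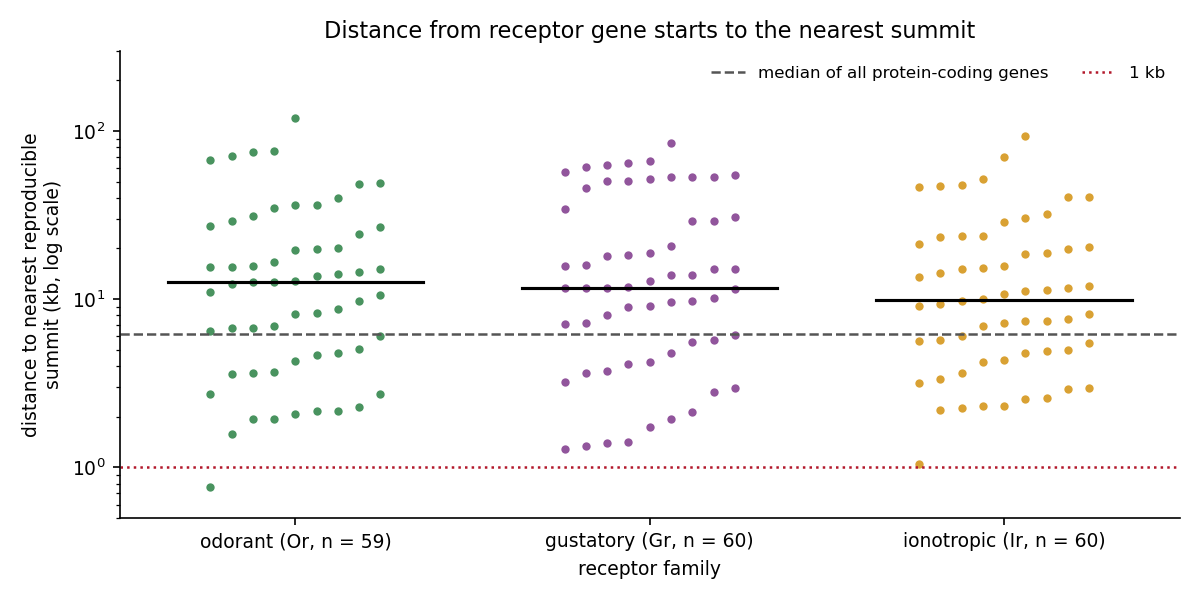
Distance in kb (log scale) from each receptor gene's start to the nearest reproducible summit, 1 point per gene, for 59 Or, 60 Gr and 60 Ir genes. Black bars are family medians, the dashed line is the median of all protein-coding genes (6176 bp) and the dotted line is 1 kb. Or88a is the single point under the dotted line, at 764 bp.

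Receptor genes are short and lie away from other starts, and genes like them in these respects also had fewer summits than all genes within 1 and 5 kb. Their median length was 1691 bp, against 2166 bp for all genes. The median distance to the nearest start of another protein-coding gene was 2154 bp for receptor genes and 1375 bp for all genes. Of other genes within the middle range of receptor lengths (1377.5 to 2204.5 bp, n = 2679), 18.0% had a reproducible summit within 1 kb. Of other genes within the middle range of both length and spacing (n = 1067), 11.7% had one. The receptor share of 0.559% was below both. Within 5 kb these genes gave 41.6% and 38.9%, against the 26.8% of receptor genes and 44.9% of all genes. Within 20 kb they gave 83.1% and 82.4%, close to the 81.8% of all genes, while receptor genes gave 70.9%.

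**Figure D3:**
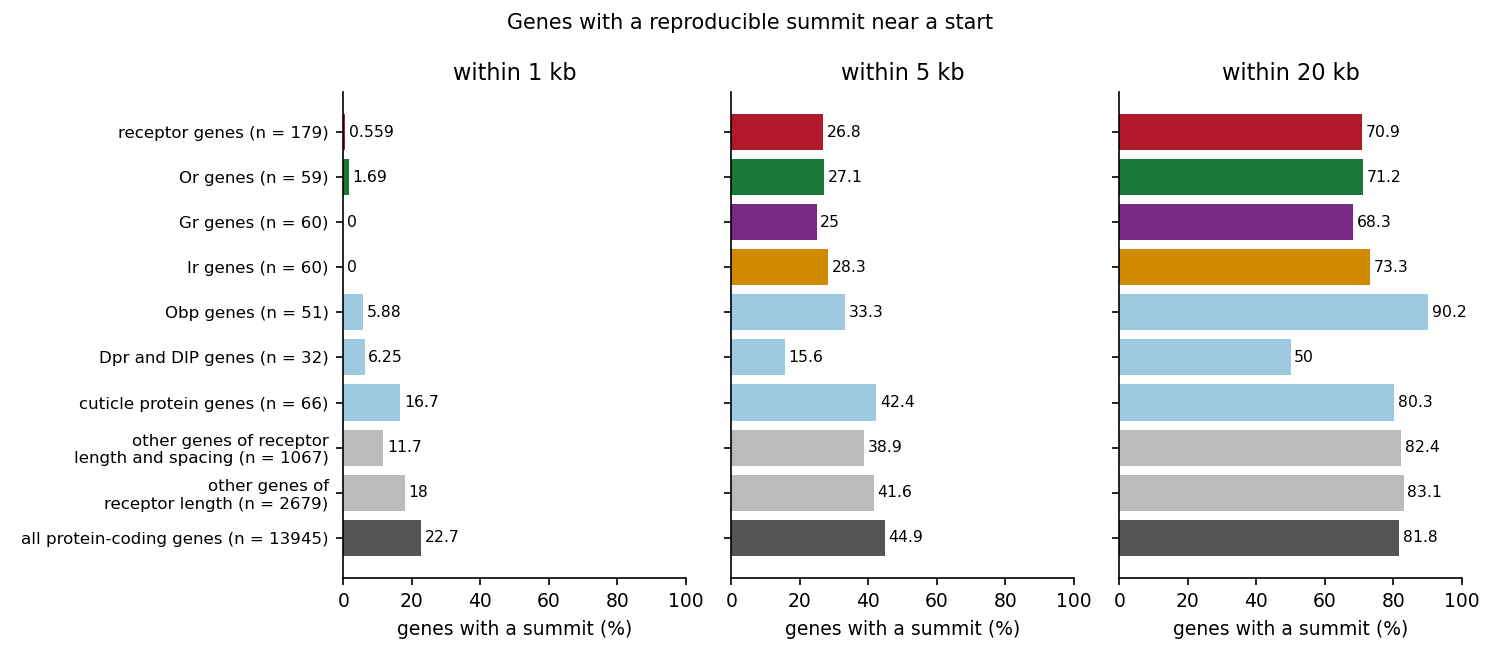
Percentage of genes with a reproducible summit within 1, 5 and 20 kb of a start (x axes), for receptor genes and their 3 families at the top, then other gene families, then other genes of receptor length and spacing, then all protein-coding genes at the bottom. Numbers beside the bars are percentages and n is the number of genes. The receptor bar is 0.559% at 1 kb, against 22.7% of all genes, and 70.9% at 20 kb, against 81.8%.

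Promoter sequence, scanned over 300 bases, gave another description of the receptor genes. TATAAA occurred on either strand in 54.2% of receptor promoters and 45.8% of all promoters. The families differed in this share, with 46 of 59 Or promoters (78.0%), 18 of 60 Gr promoters (30%) and 33 of 60 Ir promoters (55.0%). TATCGATA, the DNA replication-related element of many broadly active promoters, occurred in 1 receptor promoter (0.559%), that of Gr68a, against 9.36% of all promoters. GAGAG, the element of the GAGA factor, occurred in 20.1% of receptor promoters and 29.7% of all promoters. The hexamer AGGTCA occurred in 16 receptor promoters (8.94%), against 5.88% of all promoters. Those 16 genes lay between 1332 bp (Gr89a) and 61190 bp (Gr36c) from the nearest reproducible summit. The longer site TCAAGGTCA, which contains AGGTCA and is therefore counted within it, occurred in 1 receptor promoter, that of Gr28a, and in 0.122% of all promoters. The mean GC content of the promoters was 39.5% ± 5.82 for receptor genes (SD, n = 179) and 39.1% ± 7.74 for all genes (SD, n = 13945). Because most receptor windows are placed on the first coding base, their letters are not all upstream of transcription.

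Or88a (FBgn0038203), a receptor of trichoid olfactory neurons that detect odours of other flies, was the 1 member with a reproducible summit within 1 kb. The gene lies on the + strand of 3R from 14109445 to 14110823. Its summit, at 3R 14108681, lay 764 bp upstream in intergenic sequence, with a signal value of 104.2 and rank 7468 in the reproducible list. The start of CG12402, transcribed away from Or88a on the other strand, was nearer at 360 bp. Within 1 kb of the Or88a start, the strongest entry ranked 7331 in replicate 1, 6254 in replicate 2 and 9454 in replicate 3, and lay at 817, 764 and 633 bp. All 3 replicates thus held an entry there. No other reproducible summit fell within 10 kb of the Or88a start. The 101 bases around the summit, printed above, hold neither AGGTCA nor TATAAA.

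The next receptor genes by distance all lay beyond 1 kb. Ir25a (FBgn0031634), the most widely used ionotropic co-receptor, had a summit 1049 bp upstream of its start, at 2L 4836349, with a signal value of 100.9 and rank 7702. This summit is in an intron of tank, a gene that ends next to the Ir25a start on the same strand. The strongest summit within 5 kb of any receptor gene also lay here, 2564 bp from the Ir25a start and 135 bp from the start of tank, with a signal value of 1992.3 and rank 27. In the replicate lists it ranked 25, 40 and 29. Gr39b had a summit at 1289 bp that was 232 bp from the start of CG8665, and Gr47b had one at 1391 bp that was 197 bp from the start of san. Or85f had one at 1927 bp that was 64 bp from the start of CG34117. The summits nearest to Gr89a (1332 bp), Gr93d (1418 bp), Or94a (1571 bp), Gr93a (1932 bp) and Or45b (1946 bp) had no other coding start as near. Gr97a completes this group at 1744 bp, in an intron of CG5521 whose start is 1299 bp away. Thus 10 members had their nearest summit between 1 and 2 kb. From 1 to 2 kb the cumulative share rose from 0.559% to 6.15% of receptor genes. Over all genes it rose from 22.7% to 29.3%, so the 10 do not mark a concentration at this distance.

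In all, 69 reproducible summits lay within 5 kb of a receptor start. Of these, 53 were intergenic (76.8%), against 35.5% of all reproducible summits, and 13 were in introns (18.8%), against 58.3%. Another gene's start was nearer than the receptor's for 34 of them, and 27 (39.1%) lay within 1 kb of a start of another gene, against 37.2% of all summits within 1 kb of a start outside the receptor genes. Their median signal value was 161.7, against 176.6 for all reproducible summits. All 3 replicates held 62 of the 69 (89.9%), against 90.5% of all summits. The nearest coding start was that of a receptor gene for 56 summits (0.645% of all summits), while receptor genes are 1.28% of protein-coding genes. Hosts with 2 of these summits were tank, CG5521 and CG13300, and 10 further genes hosted 1 each.

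Inside receptor genes there was a single reproducible summit. It lay in Ir31a, an antennal odour-sensing receptor, at 2L 10408152, in an untranslated exon near the 3′ end and 200 bp from the start of RpS27A, a ribosomal protein gene. Its signal value was 89.8 and its rank 8523, close to the end of the reproducible list, and replicate 1 held no entry for it. Thus 0.559% of receptor genes, against 15.6% of all protein-coding genes, contained a reproducible summit. The share was 4.4% for other genes of receptor length and 2.91% for other genes of receptor length and spacing. Counted by length, receptor gene bodies held 0.209 reproducible summits per 100 kb, against 2.63 for genes of receptor length, 1.75 for genes of receptor length and spacing and 6.17 for all gene bodies. Pooled relaxed entries numbered 3.56 per 100 kb in receptor genes, 7.69 in genes of receptor length, 6.52 in genes of receptor length and spacing and 21.1 in all genes.

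Summits were not spread evenly over the receptor loci. The Gr93 genes on 3R, which include the caffeine-linked bitter receptor Gr93a, were the densest, with 12 of the 69 summits within 5 kb of their starts. Gr93b, Gr93c and Gr93d each had 21 reproducible summits within 20 kb, and Gr93a had 14. The strongest of those within 5 kb lay 2528 bp from the Gr93d start, with a signal value of 728.3 and rank 453, and it ranked 458, 524 and 475 in replicates 1, 2 and 3. The nearest start of a gene outside the receptor families, that of glec, was 7079 bp away. Within 1 kb of the 4 Gr93 starts there was no reproducible summit. The Ir67b and Ir67c pair on 3L had 10 summits within 20 kb each, and Or65a had 8. The summit that holds AGGTCA, 1 of the 69 (1.45%, against 1.8% of all summits), lay 3069 bp from the Ir67b start with rank 1479.

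**Figure D4:**
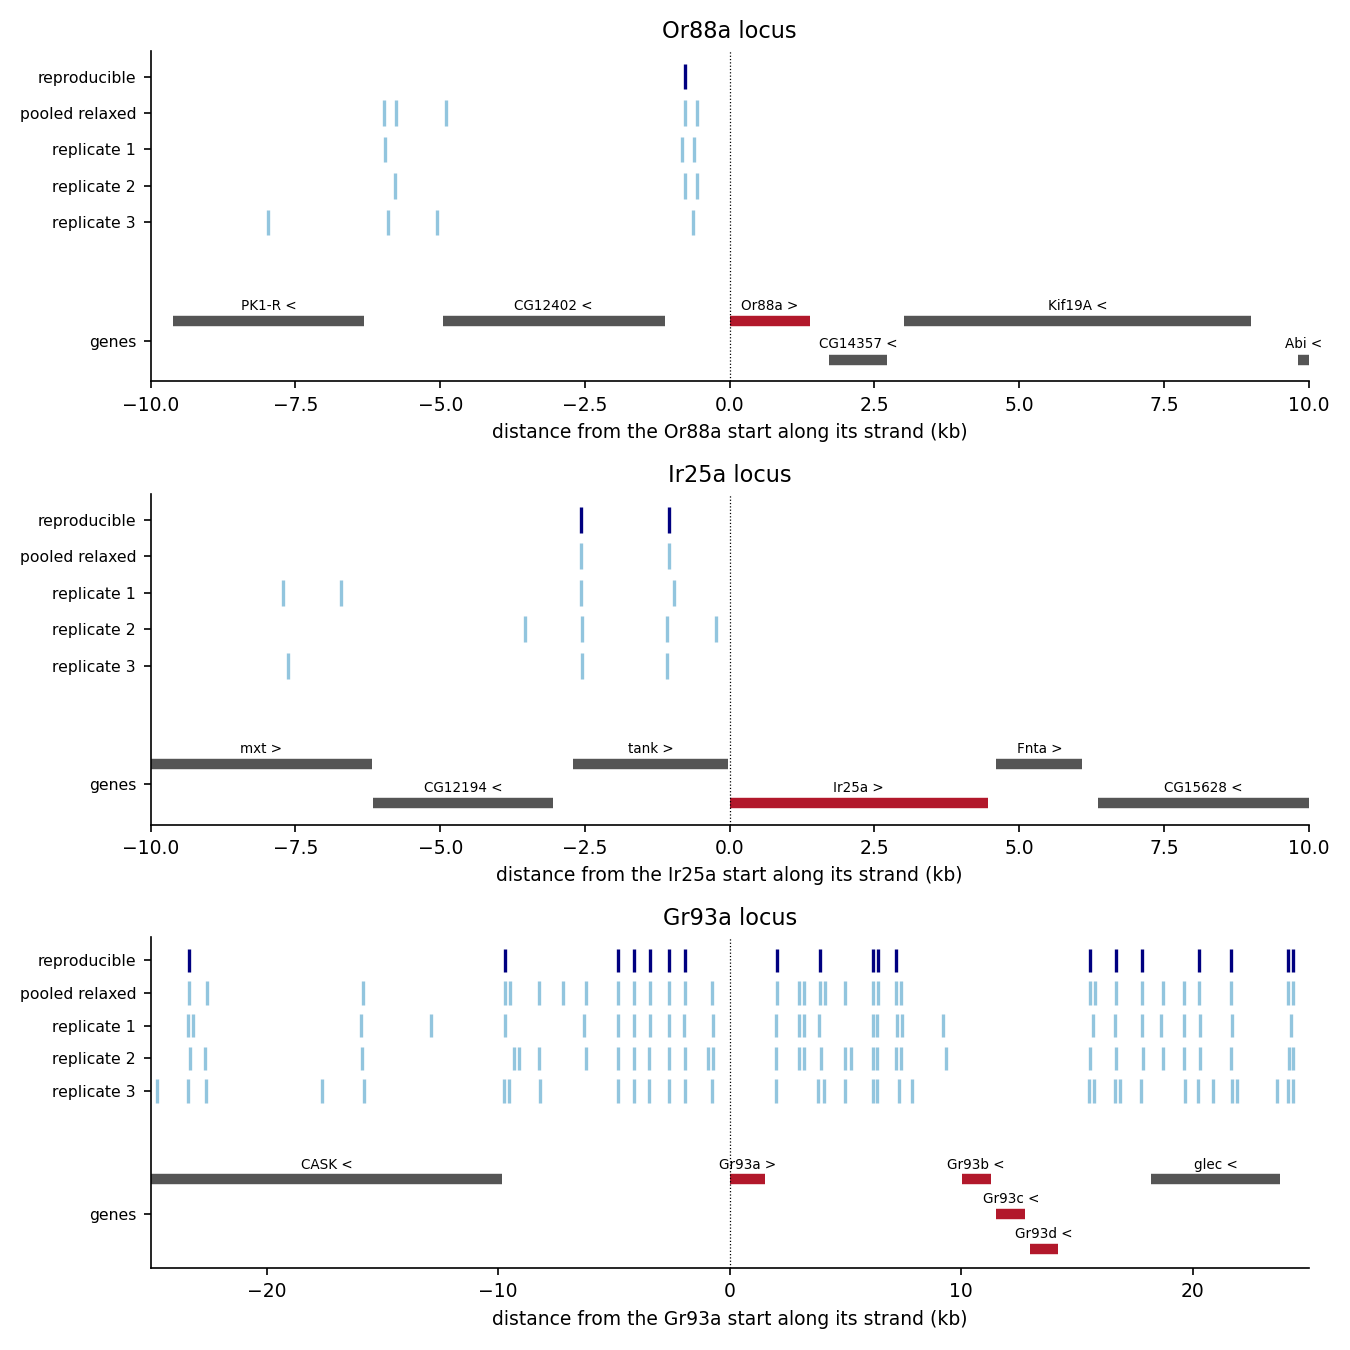
Positions of summits (vertical ticks) in the reproducible, pooled relaxed and 3 replicate lists, above protein-coding genes (bars, receptor genes in red, arrows giving the strand relative to the named gene), by distance in kb from the starts of Or88a, Ir25a and Gr93a. The Or88a panel has 1 reproducible summit, the Ir25a panel 2, and the Gr93a panel 19 within 25 kb, none of them within 1 kb of the 4 Gr93 starts.

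Other tandem arrays lay far from any summit. The 5 genes Gr22a to Gr22e had their nearest reproducible summit 45785 to 56640 bp away, Gr36a to Gr36c 61190 to 64910 bp, Gr58a to Gr58c 50218 to 53416 bp, and Ir56b to Ir56d 46437 to 51841 bp. Members of an array share their surroundings, so these genes are not independent. Or35a was the most distant member at 120219 bp, followed by Ir41a at 93963 bp, Gr92a at 84889 bp, Or74a at 75641 bp and Or63a at 74650 bp. In all, 21 receptor genes (11.7%) had no reproducible summit within 50 kb, against 637 of all genes (4.57%). Grouped by starts no more than 10 kb apart, the 179 genes formed 127 loci, 28 of them with 2 or more genes. Of the 179, 36 had a start inside another protein-coding gene, which for some was another receptor gene, as for Gr64b in Gr64c. Of these 36, 11 had a summit within 5 kb, against 26.8% of receptor genes and 44.9% of all genes. The share of all genes with such a start is not given here, so the 36 have no background.

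The 5 strongest summits within 20 kb of receptor genes were each nearer to the start of another gene. The same held for 232 of all 282 summits within 20 kb (82.3%). The strongest had a signal value of 2355.1 and rank 16, lay 9761 bp from Ir51b and was 137 bp from the start of mRpL41, a mitochondrial ribosomal protein gene. Next after the tank summit near Ir25a was one 17002 bp from Ir85a, with a signal value of 1763.6, in an intron of CG9837. One 15085 bp from Or85e, with 1631.0, was 121 bp from the start of SLIRP2, and one 14652 bp from Or59a, with 1570.5, was 424 bp from the start of CG9815. At 4 of these 5 the start of another gene was within 1 kb, against 131 of the 282 (46.5%). At the fifth, that of CG9837 was 1875 bp away. For some other summits the nearest coding start was a receptor's. The strongest of these, picked out after the values were seen, were the summit of rank 453 at Gr93d, one 1946 bp from Or45b with a signal value of 625.2 and rank 640, and one 5093 bp from Gr93b with 571.8 and rank 761.

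By role, 1 of the 8 lists of receptor genes had a member with a reproducible summit within 1 kb, Or88a in the trichoid list. The lists, chosen with earlier results known, leave out many of the 179 receptor genes. All protein-coding genes gave 22.7%, 44.9% and 81.8% within 1, 5 and 20 kb. The list of trichoid odorant receptors holds 6 of the pheromone type. Of these, 1 had a summit within 1 kb (16.7%), 5 within 5 kb (83.3%) and 6 within 20 kb (100%). These counts describe the 6 listed genes only and not trichoid receptors in general. Over all 59 Or genes the share within 5 kb was 27.1%. The 5 came from 3 loci, since Or65a, Or65b and Or65c form an array, and the other 2 were Or88a and Or47b, whose summit 2734 bp away lay 268 bp from the start of sha. Of 26 larval odorant receptors, 0 had a summit within 1 kb, 6 within 5 kb (23.1%) and 19 within 20 kb (73.1%). Of 9 sugar receptors the counts were 0, 1 (11.1%) and 8 (88.9%). The gene within 5 kb was Gr61a, whose summit lay 100 bp from the start of CG13901. The array of Gr64a to Gr64f was 9776 to 18806 bp from 1 summit.

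Of the 8 bitter receptors listed, 0 had a summit within 1 kb, 4 within 5 kb and 7 within 20 kb. All genes gave 22.7%, 44.9% and 81.8% at these distances. The 4 within 5 kb were Gr33a, Gr89a, Gr93a and Gr8a, and their nearest summits lay at 2948, 1332, 1932 and 3655 bp. This list holds no gene of the distant Gr22, Gr36 and Gr58 arrays, whose nearest summits were 45785 to 64910 bp away. Its counts therefore describe the 8 listed genes only. Of the 2 subunits of the carbon dioxide receptor, Gr63a had a summit at 4245 bp and Gr21a at 30896 bp. Of 4 ionotropic co-receptors, Ir25a was followed by Ir8a at 11640 bp, Ir76b at 15740 bp and Ir93a at 23328 bp. Of 4 temperature and humidity receptors, only Ir68a had a summit within 5 kb, at 3621 bp. Of 10 antennal odour-sensing ionotropic receptors, 3 had one within 5 kb, namely Ir31a, Ir64a and Ir76a.

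Orco, which is outside the symbol rule, had a reproducible summit 817 bp from its start, with a signal value of 98.6 and rank 7853, so it was within 1 kb like 22.7% of all genes. It was the 1 of 7 chemosensory accessory genes with a summit that near, and 3 of the 7 had one within 5 kb and 6 within 20 kb. Of 8 regulators of chemosensory neurons, 1 had a summit within 1 kb, 3 within 5 kb and 6 within 20 kb. The 1 was Xbp1, a transcription factor gene, at 119 bp with rank 1921. In other gene families, 3 of 51 odorant-binding protein genes (5.88%) and 2 of 32 Dpr and DIP genes for neuronal surface proteins (6.25%) had a summit within 1 kb. Of 66 cuticle protein genes, 11 (16.7%) had one. Of 10 pan-neuronal genes, 2 had one, namely elav, an RNA-binding protein gene, at 271 bp with rank 173, and Syt1, a synaptic vesicle protein gene, at 204 bp with rank 8049. At 1 kb the receptor share of 0.559% was lower than each of these shares. Farther out the order varied. The Dpr and DIP genes were below the receptor genes, with 15.6% within 5 kb, 50% within 20 kb and a median distance of 19237.5 bp, against 26.8%, 70.9% and 11572 bp for receptor genes. The odorant-binding protein genes gave 33.3% and 90.2% within 5 and 20 kb, and the cuticle protein genes gave 42.4% and 80.3%. No test of these differences was made.

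In the pooled relaxed list, which by design includes background, 25 receptor genes (14.0%) had an entry within 1 kb, against 40.3% of all genes. Within 5 kb it was 118 receptor genes (65.9%), against 67.6%, and within 20 kb 170 (95.0%), against 96.1%. The shares of the relaxed list were thus close to those of all genes at 5 and 20 kb. At 2 kb they still differed, with 30.2% of receptor genes and 49.5% of all genes. The strongest entry within 1 kb had a median rank of 21445 for receptor genes, against 7042.5 for all genes. Of receptor genes with an entry, 4.0% had one that was also reproducible, against 56.3% of all genes. After Or88a the strongest were those of Gr97a (rank 9180, 162 bp from the start), Ir67c (rank 9363, 242 bp), Gr93a (rank 12009, 787 bp) and Gr77a (rank 12959, 132 bp). The Gr97a and Ir67c entries ranked below the last reproducible peak, at 8693. Gr10a and Or10a, which have the same annotated extent on X, shared the entry of rank 12965 at 489 bp. Ir94h, Ir85a and Ir10a followed with ranks 15858, 16741 and 20820.

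The replicates differed in how many receptor genes had a relaxed entry within 1 kb. The counts were 50 receptor genes (27.9%) in replicate 1, against 38.4% of all genes, 17 (9.5%) in replicate 2, against 47.4%, and 26 (14.5%) in replicate 3, against 45.2%. Replicate 1 was thus highest for receptor genes and lowest for all genes. On X the order differed, with 2, 3 and 4 of 25 receptor genes in replicates 1, 2 and 3, against 529, 1230 and 1238 of 2196 genes. An entry in replicate 1 only was found for 38 receptor genes (21.2%), against 8.62% of all genes. Those entries were weak, with a median rank of 20145 for the 38 receptor genes and 20205 for the 1202 genes of the same kind among all genes. Of the strongest entries within 1 kb of each receptor gene, 17 of 48 distinct ones in replicate 1 lay in coding exons. In replicate 2 it was 0 of 16, and in replicate 3 it was 2 of 25. Over all genes the strongest entries lay in coding exons for 422 of 4368 in replicate 1 (9.66%), 93 of 5213 in replicate 2 (1.78%) and 122 of 5033 in replicate 3 (2.42%), so replicate 1 was highest there as well. The mean GC content of the entries near receptor genes was 40.1% ± 9.19 (SD, n = 48) in replicate 1, 35.3% ± 11.1 (n = 16) in replicate 2 and 33.3% ± 9.77 (n = 25) in replicate 3. Over all genes it was 36.2% ± 10.3 (SD, n = 4368) in replicate 1, 33.7% ± 9.33 (n = 5213) in replicate 2 and 34.1% ± 9.46 (n = 5033) in replicate 3. The part that coding exons and GC content have in the receptor counts was not tested. Among reproducible peaks held by replicates 2 and 3, a filter that could not raise it, the count of receptor genes with a summit within 1 kb was also 1.

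**Figure D5:**
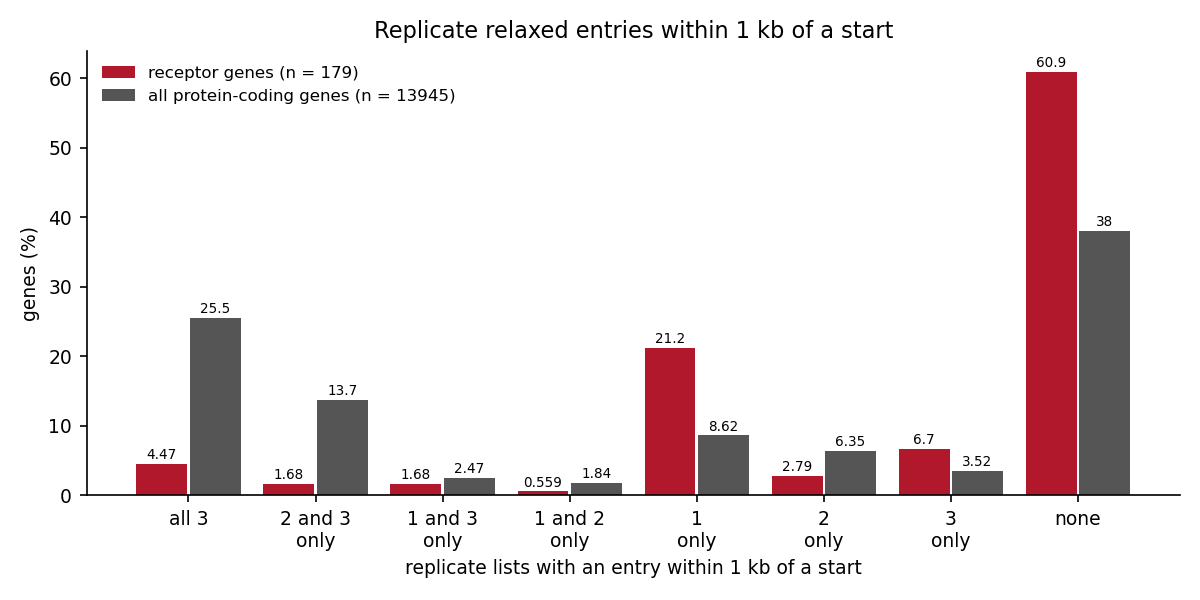
Percentage of genes (y axis) by which of the 3 replicate relaxed lists held an entry within 1 kb of a start (x axis), for receptor genes (red, left) and all protein-coding genes (grey, right). All 3 lists held an entry for 4.47% of receptor genes and 25.5% of all genes, and replicate 1 alone for 21.2% and 8.62%.

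Entries in all 3 replicate lists were found within 1 kb of 8 receptor genes (4.47%), against 25.5% of all genes, and 109 receptor genes (60.9%) had none in any list, against 38%. The 8 were Gr10a, Gr32a, Gr77a, Gr93a, Gr97a, Ir67c, Or10a and Or88a. At Ir67c the strongest entries ranked 5010, 27260 and 12078 in replicates 1, 2 and 3, and at Gr97a they ranked 10996, 16869 and 9349. At Gr32a, a bitter receptor also used in detecting other flies, they ranked 2577, 2205 and 2002, at 825, 773 and 766 bp from the start. Gr32a was the receptor gene with the highest rank within 1 kb in each replicate. The pooled list had no entry within 1 kb of Gr32a, and its nearest lay 7186 bp away. The replicate summit, at 2L 11113189 in replicate 1, was 128 bp from the start of Idua. Of 5910 replicate 1 summits on the arms that were matched within 200 bp in both other replicates, with all 3 ranks in the first 8687, 32 had no pooled entry within 1 kb, this one among them.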

How the data were processed

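ChIP-seq peak lists of 3 replicates of Hr4-GFP white prepupae were analysed as deposited. Text files deposited beside the lists say how the authors made them: each of the 4 relaxed lists came from alignments set against a control, 3 from single replicates and 1 from all replicates together, and irreproducible discovery rate (IDR) analysis of these gave the reproducible list. The deposited signal value of each peak, on the scale of its own list, was used only for ranks and medians within a list. The peak caller was not given in the sources used here, nor were the aligner and the IDR threshold. The samples' labels give sonication to a size range of 200 to 800 bp.

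Summits were column 2 plus the deposited summit offset, written 1-based. The lists in build dm3 were not used, since no annotation of that build was at hand. Every arm's highest dm6 peak end lay within the Release 6 length. Genes and transcript starts came from Ensembl release 115, for protein-coding genes on 6 arms, and sequence came from RefSeq. All 179 symbols were found by the rule. A replicate held a reproducible peak when its summit lay within 250 bp. Python 3.11.15, numpy 2.4.6, pandas 2.3.3 and matplotlib 3.10.9 were used, and the counting was tested on made-up positions.

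With 1 group and no control library among the samples analysed here, counts and medians are set beside all protein-coding genes, without a test. The control named above entered only the authors' making of the lists. Members, role lists, motifs and the rule for naming genes were chosen with earlier results of these data known. That rule takes members with a summit within 1 kb or inside the gene, the 10 next nearest, the 5 strongest within 20 kb, the 10 strongest pooled entries within 1 kb, the 5 farthest, and role list genes. Gr32a meets it as a role list gene. The Gr93, Ir67, Gr22, Gr36, Gr58 and Ir56 arrays, Or65a's summit count, the Or45b and Gr93b summits beyond the 5 strongest, and the genes named for a motif were singled out after their values were seen. Alternatives covered the starts used, peak strength, replicate support, single replicates, peak intervals, Orco, loci, distances and the Gr93 genes.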

Additional observations from a re-analysis of the deposited data

How the results depend on the processing

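Over 73 alternative values, 54 were within 1.5 times of the value given (for the median distance, within 442 bp, the SD over single replicates) and 19 moved further. The count of 1 receptor gene with a reproducible summit within 1 kb was 0 with the stronger 50% of peaks and 0 at 500 bp, and 11 at 2000 bp. It was 2 with peak intervals in place of summits and 2 with Orco added. With the 8693 highest entries of a single replicate it was 5 in replicate 1 and 2 in replicate 2. The share of all genes under these settings lay between 14.9% (stronger peaks) and 29.3% (2000 bp), and each receptor count stayed far below it. With replicates 1, 2 or 3 left out in turn, only reproducible peaks held by both others were kept, and the count was 1 each time. No list was called anew, so this filter could not raise the count.

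The stronger 50% of peaks gave 29 receptor genes within 5 kb, 83 within 20 kb and a median distance of 21945 bp, against 32.2%, 68.5% and 10563 bp for all genes. The median distance was 12247 bp in replicate 3 alone. The 1 summit inside a receptor gene became 0 with the stronger 50% of peaks, with support from all 3 replicates and in replicates 1, 2 and 3 alone (0, 0 and 0). It became 2 when intervals were used. It ranged from 0 to 1 when a replicate was left out of the support filter, which could not raise it. The interval setting used the same peaks, while the other settings named here used fewer or other peaks. The part this has in the differences was not tested. The depth of the libraries is unknown, so an absent peak means no entry in a list and not absent binding. No paired analysis was possible because there is 1 group.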

Other observations

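The 6 Ir pseudogenes in the annotation with the same form of symbol, all on 2R, are outside the rule. Their distances to the nearest reproducible summit were 44402 bp (Ir47b), 4380 bp (Ir48a), 9089 bp (Ir51a), 17621 bp (Ir56e), 21549 bp (Ir60c) and 18004 bp (Ir60f). None had a summit within 1 kb.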
